A study of Mus musculus with 6 samples.

Results

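The mouse Hox genes encode homeodomain transcription factors and lie in 4 clusters on 4 chromosomes. They were followed here in 6 RNA libraries of Py2T cells, an epithelial line grown from a tumour of the mouse mammary gland. A gene was a member if its Entrez ID maps in RefSeq to a protein-coding symbol made of Hox, a letter from a to d and a number from 1 to 13. This gave 39 genes among the 24454 rows of the deposited table, with 11 in HoxA, 10 in HoxB, 9 in HoxC and 9 in HoxD. Each member is a row of its own, and the rule uses gene names alone.

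The study kept Py2T cells on hydrogen peroxide (H2O2), an oxidant, and compared 3 groups of 2 libraries each. The C40 line received 40 µM H2O2 daily for 4 months and the I60 line received 60 µM. The control group is labelled PBS with 0 µM H2O2, whereas the treatment protocol calls these cells untreated. All groups come from the same parental line and culture medium. The libraries of a group are called biological duplicates, but the labels do not say whether they came from cultures treated apart, so p-values measure the spread between these libraries, which may be technical. Whatever else set a treated line apart from PBS cells during those months cannot be told apart from H2O2 itself.

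Hox genes lie in the order in which they are switched on along the head-to-tail axis of the embryo: genes at the anterior end of a cluster act in the hindbrain and neck, and genes at the posterior end in the lower trunk, the genitals and the limb ends. Genes with the same number in different clusters are paralogs and partly share their roles. Polycomb complexes keep Hox genes silent where they are not used, trithorax proteins keep them active, retinoic acid switches on the anterior end first, and Hox proteins bind DNA together with TALE homeodomain partners (Pbx and Meis proteins). In the mammary gland, Hoxc6 is known from the epithelium and Hoxc8 from the embryonic mammary line, and the paralogs Hoxa9, Hoxb9 and Hoxd9 are together needed for the gland to grow in pregnancy. Below, members numbered 1 to 3 are called anterior, 4 to 8 central and 9 to 13 posterior.

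RefSeq promoter windows on GRCm38.p6 (the build also named mm10) were at hand for 22 of the 39 members, in 24 windows that reach from 250 bases before a start to 50 bases after it. The 250 bases before the start are printed for 5 genes whose values differ most in kind, with each CG dinucleotide, the target of DNA methylation, in capitals. Hoxa10 (chr6:52234940-52235189, minus strand) and Hoxb8 (chr11:96281655-96281904, plus strand) were at 2 CPM or more in C40 and at or near 0 elsewhere. Of the 2 Hoxa10 windows, the window printed lies inside the annotated span of the gene. Hoxa5 (chr6:52204588-52204837, minus strand) was higher in both treated lines, Hoxb4 (chr11:96318017-96318266, plus strand) had reads in every library, and Hoxd13 (chr2:74667975-74668224, plus strand) had none. CPM is a gene's reads scaled to the total of its library. All 5 stretches lie outside the annotated exons.
Hoxa10: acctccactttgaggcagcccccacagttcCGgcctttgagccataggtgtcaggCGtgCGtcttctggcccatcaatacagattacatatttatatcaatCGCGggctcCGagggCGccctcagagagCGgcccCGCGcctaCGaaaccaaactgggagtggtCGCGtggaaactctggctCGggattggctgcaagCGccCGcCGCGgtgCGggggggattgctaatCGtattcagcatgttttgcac
Hoxb8: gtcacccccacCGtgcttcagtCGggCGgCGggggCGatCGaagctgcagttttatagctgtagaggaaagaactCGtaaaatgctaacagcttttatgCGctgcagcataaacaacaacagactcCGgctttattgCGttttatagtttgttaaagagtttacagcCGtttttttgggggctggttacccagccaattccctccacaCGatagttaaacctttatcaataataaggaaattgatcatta
Hoxa5: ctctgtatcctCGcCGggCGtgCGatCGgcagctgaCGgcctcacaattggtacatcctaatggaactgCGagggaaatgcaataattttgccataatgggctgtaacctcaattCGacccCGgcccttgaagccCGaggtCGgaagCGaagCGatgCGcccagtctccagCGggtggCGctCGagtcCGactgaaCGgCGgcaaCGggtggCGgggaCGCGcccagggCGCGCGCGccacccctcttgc
Hoxb4: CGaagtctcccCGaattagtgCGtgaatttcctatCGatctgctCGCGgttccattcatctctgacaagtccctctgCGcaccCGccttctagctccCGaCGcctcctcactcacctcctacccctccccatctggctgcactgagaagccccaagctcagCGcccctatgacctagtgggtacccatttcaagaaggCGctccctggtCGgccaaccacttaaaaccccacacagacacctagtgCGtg
Hoxd13: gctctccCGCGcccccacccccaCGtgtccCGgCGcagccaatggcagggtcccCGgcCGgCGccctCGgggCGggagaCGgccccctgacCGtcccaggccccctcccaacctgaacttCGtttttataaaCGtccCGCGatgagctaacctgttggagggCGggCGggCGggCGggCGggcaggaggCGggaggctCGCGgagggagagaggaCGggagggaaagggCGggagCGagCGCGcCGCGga
The printed stretches hold 20, 12, 28, 14 and 31 CG dinucleotides in that order. Of these stretches, that of Hoxd13 has the most and that of Hoxb8 the fewest. The other Hoxa10 window, at the upstream end of its annotated span, holds 7 CG in its 250 bases. The order thus depends on the window printed. Over their full windows, the 24 Hox promoters had a median of 14.5 CG, against 7 for all 32851 windows of the table. At least 15 CG were found in 50% of the Hox windows and in 34.6% of all windows. Windows of members with no read had a median of 20 CG (11 windows), those of the members tested below 14 (7 windows), and those of members under 1 CPM in every library 9 (5 windows). The letters TATAAA, searched on both strands, occur in 4 Hox windows (16.7%, against 13.62% of all): those of Hoxa10, Hoxb8, Hoxd4 and Hoxd13. These are matches of letters in a short window and carry no measurement of methylation or binding.

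The libraries held 48113692 to 60260520 counted reads, most in PBS, and a single read stood for 0.0166 to 0.0208 CPM. A gene with 0 reads in a group could by counting alone still have stood at up to 3 reads over the group, which is 0.0256 CPM for the PBS group, 0.0293 CPM for C40 and 0.0279 CPM for I60. The C40 replicates lay farther apart than the others: over 11524 genes, the SD of the log2 difference between replicates was 0.623 between the C40 libraries, against 0.363 between those of PBS and 0.379 between those of I60. The epithelial keratins Krt8 and Krt18 stood at 1059 CPM or more in each library, while the tight junction gene Cldn7 had no read in I60. Summed over 7 epithelial markers, the level was 6733 and 7056 CPM in PBS, 3759 and 3465 in C40, and 3166 and 3108 in I60, and 5 of the 7 fell in C40 and 5 in I60 by the limma test used for the Hox genes. Each of 5 mesenchymal markers rose in C40 and 4 in I60. Among all tested genes, 11.2% were called higher and 9.02% lower in C40, and 13.9% and 13.1% in I60. Cdh2 and Col3a1, with 1 read each in PBS, passed the test's filter (1 CPM in 2 libraries) only through the treated lines, so their direction was fixed. The call of Fn1 in C40 was lost in 3 alternative fits.

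Hox RNA was scarce in PBS cells and more abundant in both treated lines. Summed over the 39 genes, it stood at 14 and 17.4 CPM in PBS, 56.1 and 49.5 in C40, and 43.6 and 48.2 in I60. The treated libraries thus lay above both PBS libraries. C40 lay above I60 without overlap, but 2.56 of the 49.5 CPM in C40 replicate 2 were Hoxb9, which had 1 read in C40 replicate 1. Without Hoxb9 the C40 and I60 libraries overlapped. Even so, the highest value of any member was 8.19 CPM (Hoxb3 in a C40 library), whereas the median of all tested genes was 33.9 to 35.9 CPM. In PBS, 11 and 9 members had at least 1 read, in C40 25 and 25, and in I60 19 and 22. More cells with Hox RNA and more Hox RNA per cell cannot be told apart in bulk libraries. Fibroblast markers moved in the same direction: their summed level was 6.31 to 7.35 CPM in PBS, 66.5 to 156.5 in C40 and 49.2 to 76.1 in I60. Of these 8 markers, 4 could be tested and rose in C40, 3 of the 4 rose in I60, and Lum, Fap and Thy1 had no read in any library. Among all tested genes, 11.2% rose in C40 and 13.9% in I60. Dcn, Pdgfrb and Col1a1 were under 1 CPM in both PBS libraries and passed the test's filter only through treated libraries, so they had to be higher there. Pdgfra stood at 6.74 and 5.86 CPM in PBS, and its call in I60 was lost in 4 alternative fits. Immune markers summed to 0.543 CPM or less per library, endothelial markers to 0.894 or less and adipocyte markers to 0.880 or less, with no read of Cd3e, Adgre1 or Lep. The part of the fibroblast markers' change in the Hox values was not tested.

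**Figure D1:**
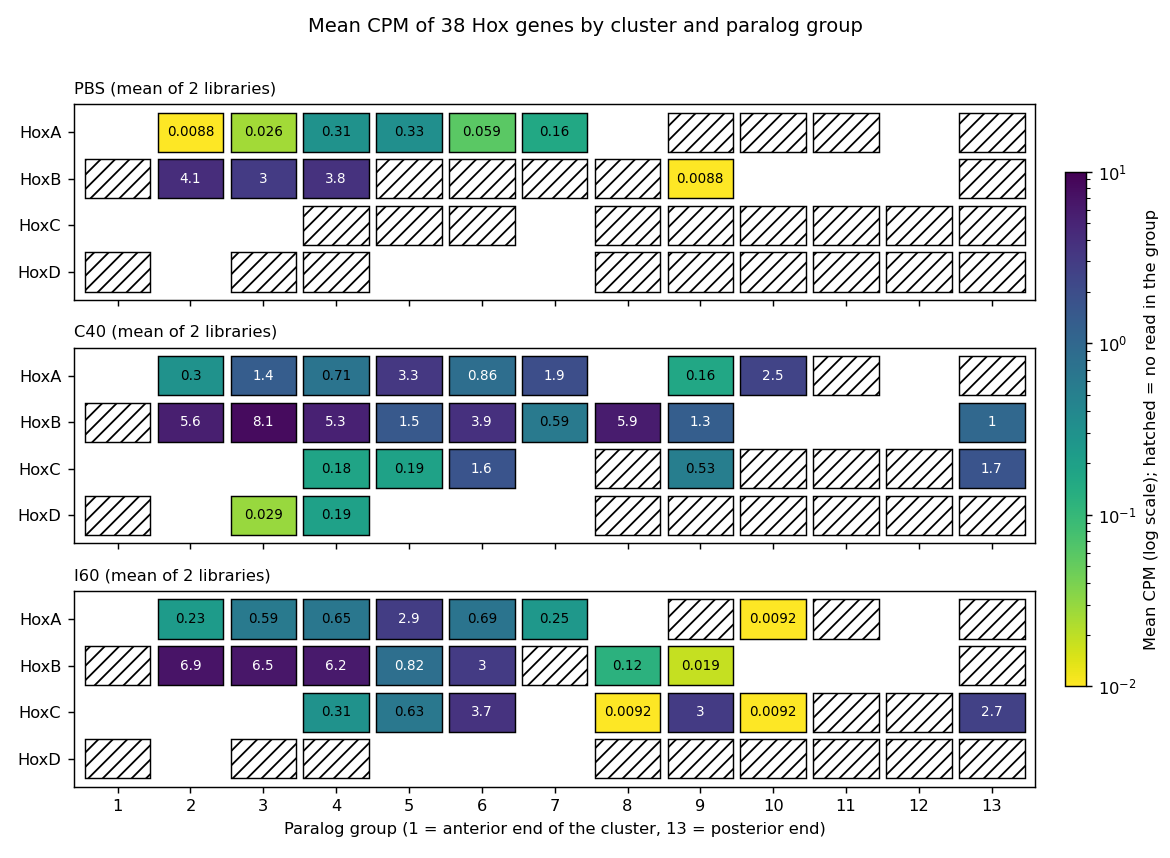
Mean CPM of 38 Hox genes (colour on a log scale, value printed in each box, mean of 2 libraries) in PBS, C40 and I60, by cluster (rows) and paralog group (columns, anterior end at the left); hatched boxes had no read in the group. In PBS the filled boxes lie in the anterior and central part of HoxA and HoxB, apart from Hoxb9 with 1 read, whereas in C40 and I60 they also reach HoxC, and HoxD is hatched throughout apart from Hoxd3 and Hoxd4 in C40.

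In PBS cells, reads in both libraries were found only for 9 members, all of them anterior or central genes of HoxA or HoxB, among them Hoxa3, Hoxa4, Hoxa5, Hoxa6, Hoxa7, Hoxb2, Hoxb3 and Hoxb4. No member of HoxC or HoxD had a read. In all, 28 of the 39 had no read in PBS, whereas 34.1% of all rows had none. Of these 28, 14 had reads in both C40 libraries, against 4.12% of the 8342 rows with no read in PBS, and 8 had reads in both I60 libraries, against 4.94%. At least 1 CPM in both libraries from no read in PBS was reached by 6 of the 39 members in C40 and 4 in I60, and by 0.147% and 0.176% of all rows. These counts rest on no filter. PBS had the deepest libraries, so fewer reads there did not come with a smaller library.

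The 12 members with no read in any of the 6 libraries were Hoxa11, Hoxa13, Hoxb1, Hoxc11, Hoxc12, Hoxd1 and all of Hoxd8 to Hoxd13; across the whole table, 27.8% of rows had none. Of these 12, 9 are posterior genes, such as Hoxa13 and Hoxd13, which pattern the digits and genitals, and Hoxa11, which acts in the limb and uterus. Hoxb1, a hindbrain gene, and Hoxd1 lie at the anterior ends of their clusters. Another 3 members were barely detected, with at most 3 reads over all libraries: Hoxc8 and Hoxc10 with 1 read each in the same I60 library, and Hoxd3 with 3 reads in C40. By position, 2 of 8 anterior, 1 of 15 central and 9 of 16 posterior members had no read. By cluster, these were 2 of 11 in HoxA, 1 of 10 in HoxB, 2 of 9 in HoxC and 7 of 9 in HoxD.

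**Figure D2:**
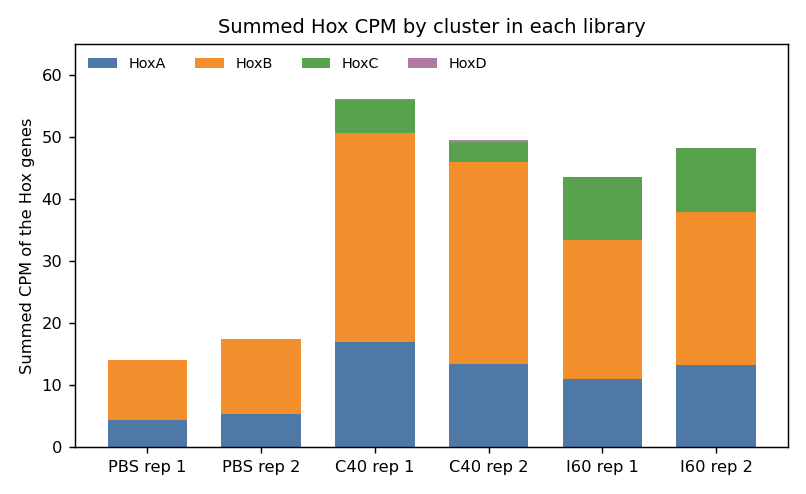
Summed CPM of the Hox genes of each cluster, stacked for each of the 6 libraries. The bars reach 14 and 17.4 CPM in PBS and 43.6 to 56.1 CPM in the treated lines, and the HoxC segment is absent in PBS and larger in I60 (10.2 and 10.4 CPM) than in C40 (5.22 and 3.24 CPM).

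The clusters differed in how their sums stood. HoxB gave the largest share of Hox RNA in each library, 68.6% and 69.9% in PBS, 60.0% and 66.0% in C40, and 51.5% and 51.2% in I60. HoxA gave 25.1% to 31.4%. HoxC was at 0 in PBS, gave 9.30% and 6.55% in C40 and 23.4% and 21.5% in I60, so it did not overlap between groups. HoxD gave 0.370% and 0.484% in C40 and 0 elsewhere. By position, anterior genes summed to 10.4 and 11.7 CPM in PBS, 20.3 and 18.6 in C40, and 19.9 and 22.0 in I60. Central genes stood at 3.57 and 5.69 CPM in PBS, 29.4 and 23.0 in C40, and 17.4 and 21.1 in I60. Posterior genes stood at 0.0175 and 0 CPM in PBS, 6.44 and 7.86 in C40, and 6.24 and 5.18 in I60, and 2.56 of the 7.86 CPM in C40 replicate 2 were Hoxb9, which had 1 read in the other C40 library. These sums carry no test.

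Only 14 members reached at least 1 CPM in at least 2 libraries and could be tested with the 11524 genes that passed this filter, by limma on log2(CPM + 0.5) with Benjamini-Hochberg adjustment over all of them. A call is an adjusted p below 0.05. Of these 14, 10 were under 1 CPM in both PBS libraries and passed only through C40 or I60, so they had to be higher there, and how many were called says little about Hox genes as a set. In C40 against PBS, 11 were called higher and 0 lower, while 11.2% of all tested genes were called higher and 9.02% lower. In I60 against PBS, 8 were called higher and 0 lower, against 13.9% and 13.1% of all tested genes. None of the 14 passed in the lower direction at an unadjusted p under 0.05 in either comparison, by limma, edgeR or DESeq2 (0 genes each). Both comparisons share the PBS libraries. Of the tested members whose values are reported, Hoxb2, Hoxb3 and Hoxb4 stood at over 2 CPM in PBS, and of these only Hoxb3 was called, in both comparisons. Without I60 replicate 2, the calls in I60 against PBS fell to 5, with Hoxa3, Hoxb3 and Hoxb5 lost, and without either PBS library the calls in C40 against PBS were 9, with Hoxb3 and Hoxc9 lost.

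**Figure D3:**
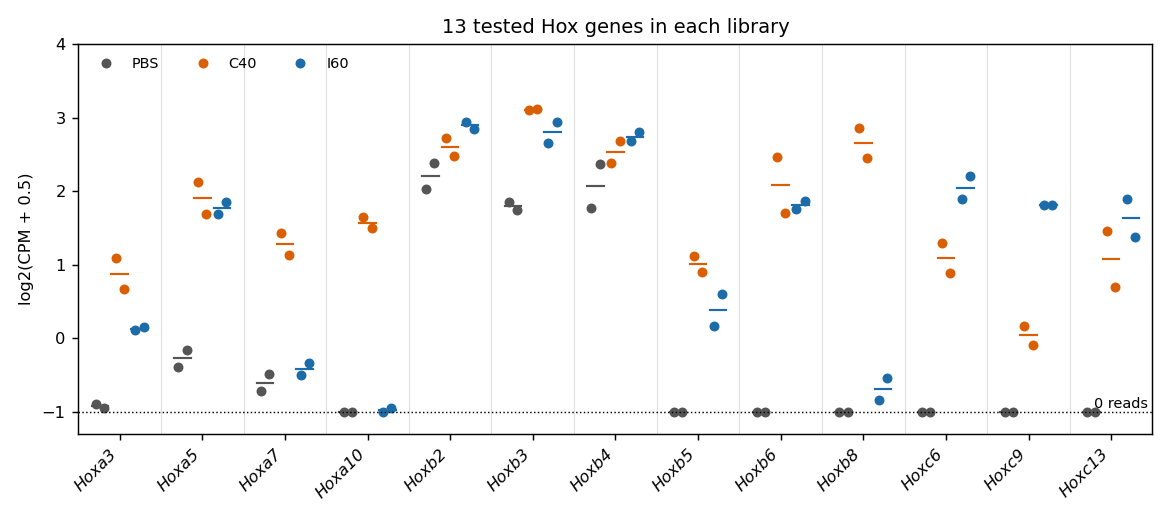
log2(CPM + 0.5) of 13 tested Hox genes in each library (points) with the group mean (short line), for PBS (grey), C40 (orange) and I60 (blue); the dotted line marks 0 reads. The PBS points of 7 genes lie on the 0 line, Hoxa10 and Hoxb8 are high in C40 only, and Hoxc9 is highest in I60.

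In I60 against C40, which also tests whether both lines' differences from PBS are unequal, 1 member was called higher in I60 (Hoxc9) and 3 lower (Hoxa7, Hoxa10 and Hoxb8). Over all tested genes, 3.51% were called higher and 5.73% lower. Hoxa7, Hoxa10 and Hoxb8 reached 1 CPM only in the C40 libraries and Hoxc9 only in those of I60, so each passed the filter through the group where it is high and its direction was fixed by that. Without C40 replicate 1, Hoxc6 was also called higher, which made 2 (adjusted p = 0.0304), and without I60 replicate 1 the call of Hoxa7 was lost (adjusted p = 0.0587), which left 2 lower. With the low-value filter at 0.2 CPM, Hoxb7 and Hoxb13 were called lower too, which made 5, while 5.52% of all genes tested there were lower. Hoxb7 and Hoxb13 had no read in PBS or I60 and passed through C40 alone, so their direction was fixed as well.

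**Figure D4:**
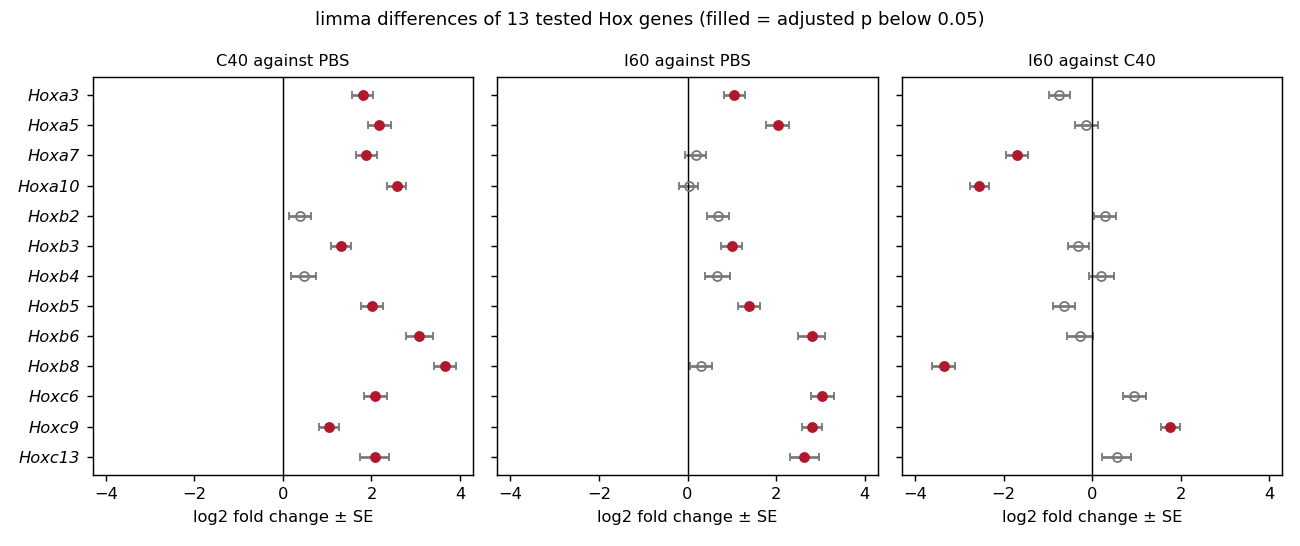
limma log2 fold changes of 13 tested Hox genes with their SE, for C40 against PBS, I60 against PBS and I60 against C40; filled points have an adjusted p below 0.05. The points for C40 against PBS reach 3.66 (Hoxb8), and in I60 against C40 Hoxa7, Hoxa10 and Hoxb8 lie at -1.69 to -3.36 while Hoxc9 lies at 1.77.

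HoxA lies on chromosome 6 on the minus strand, with Hoxa13 at its posterior end (52258853 to 52260880). Hoxa2, which patterns the second branchial arch, had 1 read in PBS and at most 0.368 CPM anywhere, too few to be tested. Hoxa3, a gene of the pharyngeal organs and neck, was nearly silent in PBS. It stood at 0.0350 and 0.0166 CPM (3 reads) in PBS, 1.62 and 1.09 in C40, and 0.581 and 0.608 in I60. The pooled reads were 52.3-fold higher in C40 than in PBS (95% interval 17.5 to 257) and 23.3-fold higher in I60 (7.61 to 116), where the intervals cover counting error only. Both passed (limma adjusted p = 0.00246 and 0.0173), the second no longer when any of the PBS or I60 libraries was left out (0.0782 to 0.0927). The annotated span of Hoxa3 covers Hoxa4, Hoxa5 and Hoxa6, so a read in those genes also lies within the span of Hoxa3.

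Hoxa5, needed for lung and thoracic development, rose in both treated lines. It stood at 0.263 and 0.398 CPM in PBS, 3.85 and 2.72 in C40, and 2.73 and 3.09 in I60. Both treated groups lay above PBS and overlapped each other (I60 against C40 -0.13, adjusted p = 0.823). The fitted fold was 4.52 in C40 (log2 fold change 2.18, SE 0.26, limma adjusted p = 0.00162) and 4.12 in I60 (2.04, SE 0.26, adjusted p = 0.00140). The ratios of pooled reads, without a pseudocount, were 9.78 and 8.78. Hoxa4 and Hoxa6 on either side were too low to be tested: Hoxa4 was at 0.263 to 0.349 CPM in PBS, 0.442 and 0.977 in C40 and 0.543 and 0.755 in I60, and Hoxa6 at 0.0350 to 0.0830, 0.589 and 1.12, and 0.487 and 0.903.

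Hoxa7 and Hoxa10 marked C40 off from I60. Hoxa7, a thoracic gene, stood at 0.105 and 0.216 CPM in PBS, 2.18 and 1.69 in C40, and 0.206 and 0.295 in I60. It rose in C40 (log2 fold change 1.88, SE 0.24, limma adjusted p = 0.00208) and was lower in I60 than in C40 (-1.69, adjusted p = 0.00562; 7.67-fold in pooled reads, 95% interval 5.11 to 11.9). I60 and PBS overlapped. Of its exon bases, 20.4% lie opposite an exon of the antisense gene Hoxaas3, which itself had at most 5 reads in a group.

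Hoxa10, a posterior gene needed for the uterus, had no read in PBS, 2.62 and 2.34 CPM in C40, and 0 and 0.0184 CPM (1 read) in I60. It was at least 96.6-fold higher in C40 than in PBS (limma adjusted p = 0.000372), where the bound sets PBS at 3 reads over the group. Against I60 the pooled reads were 265.9-fold higher (95% interval 47.3 to 10540, limma adjusted p = 0.000638). Hoxa9 between both had reads in C40 only, 0.125 and 0.202 CPM. The posterior end beyond Hoxa10 was without a read.

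HoxB lies on chromosome 11 from 96194316 (Hoxb13) to 96368254 (Hoxb1), on the plus strand with the posterior end first. Its genes Hoxb2, Hoxb3 and Hoxb4 were read in every library. Hoxb2, a hindbrain gene, stood at 3.59 and 4.70 CPM in PBS, 6.09 and 5.06 in C40, and 7.19 and 6.67 in I60. The groups did not overlap, but neither difference from PBS passed (log2 fold change 0.39, adjusted p = 0.303, and 0.69, adjusted p = 0.0858). Among all tested genes, 30.9% had C40 wholly above PBS and 35.5% had I60 wholly above PBS.

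Hoxb3 rose in both lines, from 3.10 and 2.85 CPM in PBS to 8.06 and 8.19 in C40 and 5.79 and 7.20 in I60. In pooled reads, without a pseudocount, it was 2.735-fold higher in C40 and 2.187-fold higher in I60 than in PBS. The fitted rise was 2.48-fold in C40 (limma adjusted p = 0.00921) and 2.0-fold in I60 (adjusted p = 0.0202). The first call was lost without either PBS library (0.0683 and 0.0699), and the second without any PBS or I60 library (0.0597 to 0.132). Hoxb4, known for expanding blood stem cells, lies inside the span of Hoxb3. It stood at 2.91 and 4.65 CPM in PBS, 4.70 and 5.92 in C40, and 5.90 and 6.47 in I60, and neither difference from PBS passed (adjusted p = 0.289 and 0.130). Hoxb1 at the anterior end had no read.

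The central genes Hoxb5 and Hoxb6 had no read in PBS and were read in all treated libraries. Hoxb5 stood at 1.66 and 1.36 CPM in C40 and 0.618 and 1.01 in I60, at least 58.8-fold and 32.0-fold higher than PBS (limma adjusted p = 0.00192 and 0.00672). Without I60 replicate 2 the latter call was lost (0.0529). Hoxb6 stood at 5.03 and 2.74 CPM in C40 and 2.87 and 3.13 in I60, at least 149-fold and 117-fold higher (adjusted p = 0.000744 and 0.000658). C40 and I60 overlapped for Hoxb6 (adjusted p = 0.666). For Hoxb5 they did not overlap, yet the difference did not pass (adjusted p = 0.20).

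Hoxb8, known from blood progenitors and grooming behaviour, had the largest fitted difference of any member. It stood at 0 CPM in both PBS libraries, 6.78 and 4.99 in C40, and 0.0562 and 0.184 in I60. In C40 it was at least 228-fold higher than in PBS (log2 fold change 3.66, SE 0.25, limma adjusted p = 0.000199). In I60 its 13 reads did not pass by limma (adjusted p = 0.418) but did by edgeR (adjusted p = 0.0242) and DESeq2 (adjusted p = 0.00469) on the recovered reads. The pooled reads in C40 were 48.3-fold those in I60 (95% interval 28.0 to 91.2, limma adjusted p = 0.000421).

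The remaining genes towards the posterior end of HoxB had nearly all of their reads in C40. Hoxb7 stood at 0.540 and 0.644 CPM there and had no read in PBS or I60. Hoxb13, a prostate gene, stood at 0.811 and 1.2 CPM in C40 and also had no read in the other groups, which makes it at least 39.7-fold higher than in PBS and 36.4-fold higher than in I60. Hoxb9 was different, since its reads came from a single library: 139 reads (2.56 CPM) in C40 replicate 2, 1 read in C40 replicate 1, and at most 1 in each PBS and I60 library. Its neighbours Hoxb8 and Hoxb13 had reads in both C40 libraries.

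**Figure D5:**
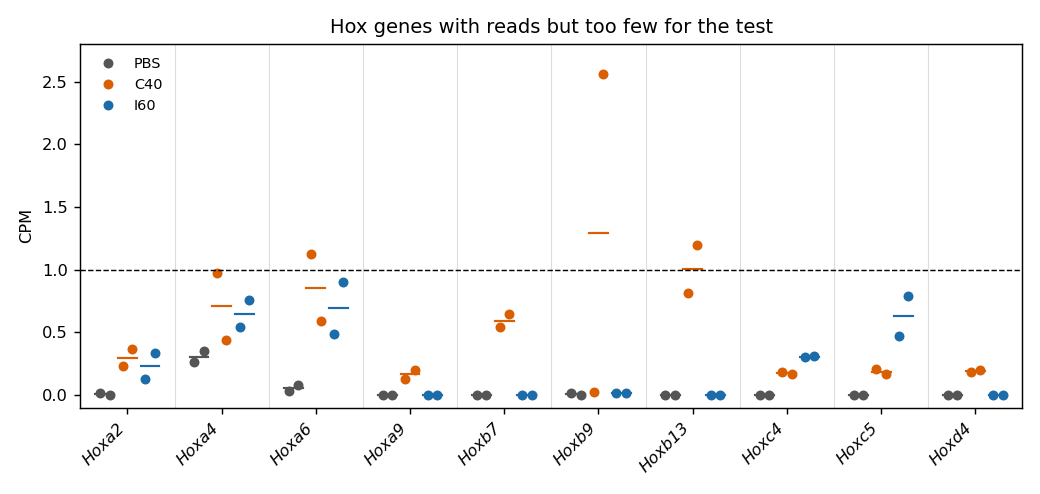
CPM of the 10 Hox genes that had more than 3 reads but were too low for the test, in each library (points) with the group mean (short line), for PBS (grey), C40 (orange) and I60 (blue); the dashed line marks 1 CPM. Hoxa9, Hoxb7, Hoxb13 and Hoxd4 lie above 0 in C40 only, Hoxb9 in C40 replicate 2 stands at 2.56 CPM, and Hoxc4 and Hoxc5 are highest in I60.

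HoxC lies on chromosome 15 from 102921131 (Hoxc13) to 103036856 (Hoxc4), on the plus strand, and had no read in PBS. Its reads in the treated lines came from Hoxc4, Hoxc5, Hoxc6, Hoxc9 and Hoxc13, with the genes in between, Hoxc8 and Hoxc10 to Hoxc12, at or near 0. Hoxc6, a gene of the thorax and mammary epithelium, stood at 1.95 and 1.34 CPM in C40 and 3.20 and 4.11 in I60. It was at least 63.8-fold higher than PBS in C40 (limma adjusted p = 0.00187) and 143-fold in I60 (adjusted p = 0.000209). The 2 lines did not overlap, but I60 against C40 did not pass (log2 fold change 0.96, adjusted p = 0.0694).

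Hoxc9, which sets thoracic motor neuron identity, was the only member called higher in I60 than in C40 with all 6 libraries and the filter at 1 CPM. It was at 0.624 and 0.442 CPM in C40 and 3.0 and 3.02 in I60, a ratio of pooled reads of 5.71 (95% interval 4.27 to 7.77; limma log2 fold change 1.77, SE 0.22, adjusted p = 0.00344). Against PBS it was at least 20.6-fold higher in C40 (adjusted p = 0.0183, lost without either PBS library at 0.0951 and 0.0789) and 118-fold in I60 (adjusted p = 0.000160). Hoxc4 and Hoxc5, too low to be tested, stood at 0.187 and 0.166, and 0.208 and 0.166 CPM in C40, and at 0.300 and 0.313, and 0.468 and 0.792 CPM in I60.

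Hoxc13, a gene of hair and nail at the posterior end of HoxC, was read in all treated libraries although its neighbours Hoxc11 and Hoxc12 were not. It stood at 2.24 and 1.12 CPM in C40 and 3.22 and 2.10 in I60, so these groups overlapped (adjusted p = 0.387). It was at least 64.5-fold higher than PBS in C40 and 104-fold in I60 (limma adjusted p = 0.00522 and 0.00125). HoxC thus had its reads at Hoxc4 to Hoxc6, at Hoxc9 and at Hoxc13, with genes of 0 or 1 read between them.

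HoxD lies on chromosome 2 from 74668225 (Hoxd13) to 74765142 (Hoxd1), on the plus strand, and was close to silent. Hoxd4 had 20 reads in C40 (0.187 and 0.202 CPM) and none in PBS or I60, which puts C40 at least 7.64-fold and 7.0-fold higher. Hoxd3 had 3 reads, all in C40, and shares 388 exon bases with Hoxd4 on the same strand, so reads of this stretch could count for either. The other 7 members had no read in any library, including Hoxd9, the third of the mammary gland paralogs, and Hoxd10 to Hoxd13, which pattern the limb ends.

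Per kilobase of exon, genes can be compared with each other, and the orders given here cover only the 38 members whose values are reported. Among these, the level in PBS was 1.47 CPM per kb for Hoxb4, 1.19 for Hoxb2 and 0.700 for Hoxb3, with Hoxa4 (0.192) and Hoxa5 (0.176) far below. Hoxb4 and Hoxb2 overlapped, and Hoxb3 lay below them. In C40 the order was Hoxb8 (2.23), Hoxb4 (2.07), Hoxb6 (1.98), Hoxb3 (1.91) and Hoxa5 (1.75), whose neighbours lie within the spread of their replicates. In I60 it was Hoxb4 (2.41), Hoxb2 (1.99), Hoxa5 (1.55), Hoxb3 (1.53), Hoxb6 (1.53), Hoxc6 (1.52), Hoxc9 (1.24) and Hoxc13 (1.08). There, Hoxb4, Hoxb2 and Hoxa5 followed each other without overlap of their libraries, those from Hoxa5 to Hoxc6 overlapped, and Hoxc9 lay below Hoxc6 and overlapped Hoxc13. The gene at the head of the C40 order, Hoxb8, stood at 0.0456 CPM per kb in I60.

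Noncoding genes inside the clusters were mostly unread. Of 32 annotated, 18 have a row, and 13 of these had no read, among them Hotair and Haglr, the long noncoding RNAs of HoxC and HoxD, and the precursors of miR-10 and miR-196, for which the rows of this kind of library say little. Of those with reads, Mira and Hotairm1, both in HoxA, could be tested. Mira is a noncoding gene between Hoxa6 and Hoxa7. It stood at 0.140 and 0.149 CPM in PBS, 2.93 and 1.80 in C40, and 0.169 and 0.295 in I60. It rose in C40 (log2 fold change 2.12, limma adjusted p = 0.00209) and was lower in I60 than in C40 (-1.95, adjusted p = 0.00530). The latter call was lost without I60 replicate 1. Mira and its neighbour Hoxa7 reached 1 CPM only in the C40 libraries, so the filter fixed these directions for both. Hotairm1, a long noncoding RNA of HoxA, stood at 1.63 and 1.44 CPM in PBS, 2.14 and 2.58 in C40, and 2.45 and 2.65 in I60, and neither difference from PBS passed (adjusted p = 0.183 and 0.109).

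Of the 9 TALE genes, whose proteins bind DNA with Hox proteins, 7 were tested and 1 rose, Meis3, in both lines, while 11.2% of all tested genes rose in C40 and 13.9% in I60. Meis3 had no read in PBS, 7.69 and 11.6 CPM in C40, and 9.03 and 9.08 in I60 (limma adjusted p = 0.000142 and 5.52e-05). It passed the filter only through the treated lines, so its direction was fixed. Other members lay close to the threshold: in I60, Pbx2, Pbx3 and Meis2 had limma adjusted p = 0.0521, 0.0574 and 0.0554 and were called in 4, 4 and 5 alternatives (Pbx3 lower), and Pknox1 in C40 (adjusted p = 0.0659) in 2. The list's median log2 fold change was 0.40 in C40 and 0.15 in I60, against -0.02 and -0.002 over all tested genes; setting Meis3, the highest of the list, at a lower bound leaves these medians as they are. None of the 9 ParaHox and Hox-linked homeobox genes reached the test, and 6 had no read, among them Evx1 and Evx2, which lie beside HoxA and HoxD. Cdx4, a regulator of central Hox genes, stood at 0.0525 and 0.0332 CPM in PBS, 0 in C40, and 0.112 and 0.0921 in I60.

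Among 18 genes of retinoic acid signalling, 9 were tested, and Cyp26b1 and Stra6 rose in both lines. Cyp26b1, which breaks down retinoic acid, stood at 1.14 and 0.332 CPM in PBS, 7.25 and 9.68 in C40, and 7.42 and 15.3 in I60 (limma adjusted p = 0.00464 and 0.00205). Stra6, the receptor that takes up retinol, stood at 0.105 and 0.0830 CPM in PBS, 10.6 and 5.81 in C40, and 1.55 and 1.99 in I60 (limma adjusted p = 0.000382 and 0.00467). Stra6 passed the filter only through the treated lines, so its direction against PBS was fixed. It was lower in I60 than in C40 (adjusted p = 0.0124, lost without either I60 library at 0.0815 and 0.111).

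Rarg, a retinoic acid receptor, and Crabp2, which carries retinoic acid to the nucleus, fell in I60. Rarg stood at 268 and 265 CPM in PBS, 237 and 255 in C40, and 137 and 138 in I60 (limma adjusted p = 0.00309 against PBS and 0.0132 against C40). The latter was lost without either I60 library (0.0989 and 0.101). Crabp2 stood at 66.3 and 43.0 CPM in PBS, 44.1 and 38.6 in C40, and 5.26 and 6.58 in I60 (adjusted p = 0.000240 and 0.00126). Of the 9 tested, 2 were called higher and 0 lower in C40, and 2 higher and 2 lower in I60, with median log2 fold changes of 0.47 and 0.33. Over all tested genes, 11.2% were called higher and 9.02% lower in C40, and 13.9% and 13.1% in I60. Rxrb, a partner of the retinoic acid receptors, was called higher in both lines with the replicate block, and its limma adjusted p without the block was 0.108 in C40 and 0.167 in I60. Rdh10, an enzyme of the first oxidation step from retinol, had an adjusted p of 0.154 in I60 and was called lower there in 3 alternatives. Of the enzymes that make retinoic acid, Aldh1a2 had no read, and Aldh1a1 and Aldh1a3 stood at 0.735 CPM or less.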

How the data were processed

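RNA of 6 Py2T libraries (PBS, C40 and I60, 2 each) was depleted of ribosomal RNA and read as single reads, per the labels' protocols, which name 2 depletion kits. STAR and mm10 are named in the submitters' processing notes; how reads were counted (program, annotation, strand) is not given in the sources used. The deposited values are CPM (a gene's reads scaled to its library's total) as computed by the authors for 24454 Entrez genes, of which 24374 matched a RefSeq symbol. All values were whole multiples of 1 read (100% within a tolerance of 0.01), so whole reads were recovered, 48113692 to 60260520 per library.

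The 11524 genes that reached 1 CPM in 2 or more libraries were tested two-sided with limma 3.58.1 in R 4.3.3, with a trend, on log2(CPM + 0.5), in 1 model of 3 groups (3 residual degrees of freedom) with Benjamini-Hochberg adjustment. The test was tried on simulated data. edgeR 4.0.16 and DESeq2 1.42.0 on recovered reads, other pseudocounts, filters and TMM factors, 2-group fits, a replicate block and leaving out each library were the alternatives. A fold against a group with 0 reads is a lower bound against 3 reads over that group; with more reads it is the ratio of pooled reads with an exact 95% interval. A fitted difference of a gene at 0 depends on the pseudocount. Lengths are unions of annotated exons. All 39 members enter the counts and sums, tested members are given by library, and the values of 1 member and 1 cofactor are not reported here; other genes named come from fixed lists of cofactors, retinoic acid, Polycomb, trithorax, cluster-internal, flanking and cell type marker genes. Members and lists were chosen with earlier results of these data known. The labels give no date or batch.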

Additional observations from a re-analysis of the deposited data

Results flagged for a closer look

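For 4 Hox genes the difference from PBS was unequal in the 2 treated lines, by the limma test of I60 against C40 with Benjamini-Hochberg adjustment over all genes tested. Hoxa7, the thoracic gene of HoxA, differed by -1.69 on the log2(CPM + 0.5) scale (adjusted p = 0.00562), with both I60 libraries below both C40 libraries. Hoxa10, 2 genes further towards the posterior end, differed by -2.55 (adjusted p = 0.000638) and had 1 read in I60 and 253 in C40. Hoxb8 differed by -3.36 (adjusted p = 0.000421) and had 13 reads in I60 and 597 in C40. Hoxc9 went the other way, by 1.77 (adjusted p = 0.00344), with 324 reads in I60 and 54 in C40. Hoxa7, Hoxa10 and Hoxb8 reached 1 CPM only in the C40 libraries and Hoxc9 only in those of I60, so the filter fixed each direction. These 4 were singled out because the test of the difference itself passed; the cause was not tested.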

How the results depend on the processing

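With no filter on low values, 17 Hox genes were called higher in C40 against PBS (11 in the main analysis), 2 higher in I60 against C40 (1) and 7 lower (3), because 27 members were tested in place of 14. Of the genes added, Hoxa9, Hoxb7, Hoxb13 and Hoxd4 had reads in C40 only, so their direction was fixed. The share of all genes called in that fit is not given, so its counts say little about Hox genes as a set. With the filter at 0.2 CPM, 5 were lower in I60 against C40, where 5.52% of all genes tested were lower. With each library left out in turn, the calls ranged from 9 to 11 for C40 against PBS, from 5 to 8 for I60 against PBS, and from 1 to 2 higher and from 2 to 3 lower for I60 against C40, with 5 reached without I60 replicate 2 and 2 higher without C40 replicate 1. The only changes of sign among the fitted differences reported were uncalled. In I60 against C40, Hoxa5 ranged from -0.35 to 0.081 and Hoxb6 from -0.66 to 0.11, both highest without C40 replicate 1. The cause was not tested. Of 585 fitted values of the members reported, under 15 alternatives, 565 kept direction and side of the threshold, 15 lost the call and 3 gained it. The lost calls belong to 6 of 23 called differences.

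With the replicate number as a block, the counts were 11 higher in C40 against PBS, 8 higher in I60 against PBS, and 1 higher and 3 lower in I60 against C40, and 0 calls of Hox genes changed. Among the other lists, Suz12, Mtf2, Ring1, Rxrb and Kdm6b were among the genes that gained a call with it. Same-numbered libraries deviated together with correlations of 0.154 (PBS and C40), 0.105 (PBS and I60) and 0.438 (C40 and I60) over 11524 genes. With 2 numbers and no label that ties them to a culture or day, they were not taken as pairs.

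Depth limits the members with few reads: a gene without a read in a group could have stood at up to 0.0256 to 0.0293 CPM. With 2 libraries a group, a difference that missed the threshold is not shown to be absent. Exons overlap on opposite strands for Hoxa3 and Hoxa7 (with Hoxaas3), and on the same strand for Hoxd3 with Hoxd4 and Hoxc5 with Hoxc10. Reads there may have been assigned to either gene. Hoxa11 also overlaps its antisense gene, but neither had a read.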

Other observations

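Most of the chromatin regulators known to keep Hox genes silent or active were not called, though several lay close to the threshold. All 24 Polycomb genes listed were read at over 3 CPM in each library, and their median log2 fold change was -0.13 in C40 and 0.02 in I60. In C40, 0 were called higher and 1 lower (Pcgf3), where 11.2% and 9.02% of all tested genes were called. Calls were gained there under some alternatives, edgeR, DESeq2 and the replicate block included, by Suz12 (lower, limma adjusted p = 0.0535, down to 0.0105 in 5 alternatives), Mtf2 (lower, 0.0634, down to 0.00929 in 4) and Ring1 (higher, 0.0565, down to 0.00931 in 4). In I60, Pcgf2 and Cbx7 rose and Pcgf3, Cbx2 and Phc2 fell, and Mtf2 (limma adjusted p = 0.0623) was called lower in 6 alternatives, the replicate block among them (0.00939 to 0.0437). Cbx7, a reader of the Polycomb mark, stood at 18.9 and 21.8 CPM in PBS, 24.4 and 38.3 in C40, and 48.0 and 59.8 in I60 (limma adjusted p = 0.00914 against PBS). Its relative Cbx2 stood at 38.7 and 50.02 CPM in PBS, 35.1 and 22.3 in C40, and 15.9 and 12.6 in I60 (adjusted p = 0.00643). Jarid2, a partner of the H3K27 methyltransferase, was higher in I60 than in C40 (adjusted p = 0.0244). The calls of Pcgf2, Pcgf3, Cbx2, Cbx7, Phc2 and Jarid2 were each lost in at least 1 alternative, with adjusted p up to 0.208. Of 10 trithorax and demethylase genes, 0 were called in C40 and 1 fell in I60, Kmt2a (adjusted p = 0.0278, lost in 5 alternatives at 0.0520 to 0.171), while Kdm6b in I60 (adjusted p = 0.162) was called higher in 4, the replicate block among them (0.0117 to 0.0356).

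Most of the genes that flank the clusters were not called either. Of 24 (the nearest 3 protein-coding genes on each side), 18 were tested, with median log2 fold changes of -0.29 in C40 and -0.09 in I60. In C40, 1 was called higher and 1 lower, against 11.2% and 9.02% of all tested genes. In I60, 1 was called higher and 2 lower, against 13.9% and 13.1%. Snx10, beside HoxA, fell in both lines, from 21.3 and 17.5 CPM in PBS to 5.78 and 8.68 in C40 and 7.19 and 7.22 in I60 (limma adjusted p = 0.0125 and 0.01). Calcoco1, beside HoxC, rose in both, from 15.7 and 28.0 CPM to 57.8 and 98.5 and to 42.4 and 73.4 (adjusted p = 0.0202 and 0.0420). Snx11, beside HoxB, fell in I60 (adjusted p = 0.0210). Each of these calls was lost with some library left out (adjusted p up to 0.255). Evx1 and Evx2 had no read.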
